A study of Homo sapiens with 4 samples.

Results

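The genes described here are those that remove or deposit methyl groups on lysine 27 of histone H3, together with the subunits of the depositing complex, in NB4 cells given an empty vector or a vector carrying JMJD3. They are the H3K27 demethylases KDM6A and KDM6B and 8 subunits of Polycomb repressive complex 2 (PRC2), namely EZH1, EZH2, EED, SUZ12, RBBP4, RBBP7, JARID2 and PHF19. Each was found by its gene symbol on 1 line of a table of 60662 genes, so that 10 of 60662 genes are covered and none of the 10 is missing.

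NB4 is a human M3/APL leukaemia cell line that carries the PML-RARα fusion. RNA was sequenced from 2 libraries of cells transduced with the control vector (Vector) and 2 libraries of cells transduced with the JMJD3-expression vector (JMJD3). According to the methods of the study, both are lentiviral vectors of the pLVX-IRES-GFP type, the second with wild-type JMJD3, and transduced cells were sorted for GFP. Whether the libraries of each group come from separate cultures or transductions is not stated in the sources used here. P-values therefore measure the spread between these libraries, which may be technical.

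PRC2 methylates lysine 27 of histone H3, and the trimethylated form, H3K27me3, marks silenced genes. EZH1 and EZH2 are its alternative catalytic subunits, EED and SUZ12 are needed for its activity, and RBBP4 and RBBP7 are histone chaperones that it shares with other chromatin complexes. JARID2 and PHF19 are accessory subunits that help bring it to its targets. KDM6A (UTX) and KDM6B (JMJD3) take the mark off again, KDM6A mostly as part of a complex with the H3K4 methyltransferases KMT2C and KMT2D. Several of these genes are mutated or misregulated in blood cancers.

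The deposited table gives each gene an estimated count in each library, and beside it the authors' FPKM (fragments scaled to the length of the gene and the size of the library). The deposited counts summed to 39078443 and 40768225 in Vector replicates 1 and 2, and to 35176388 and 34704909 in JMJD3 replicates 1 and 2. These sums are not read totals, because the low values of each library are mostly whole multiples of 1 step, which was 1.143, 1.0468, 0.9928 and 0.82875 in the same order. Divided by that step, the libraries held 34190352, 38947014, 35431665 and 41876181 estimated reads. Counts are given below as CPM, the count relative to the library size after TMM scaling (edgeR's trimmed mean of M values), and levels of different genes are compared in FPKM only. Changes are log2 ratios of JMJD3 to Vector from the quasi-likelihood test of edgeR, and Benjamini-Hochberg adjustment covered all 15246 genes tested, with 0.05 as the threshold. Vector replicate 1 was run on lane 20 according to the labels, and the remaining 3 libraries shared lane 17. The fit without Vector replicate 1 is therefore also the comparison within 1 lane. It leaves Vector replicate 2 as the only Vector library, so that lane and library cannot be told apart in it. Log2 CPM correlated at a Pearson r of 0.995 for the Vector pair and 0.998 for the JMJD3 pair.

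The libraries carried the RNA of promyelocytic cells. Of 8 promyelocyte and myeloid markers, 6 had at least 1 FPKM in every library, while ELANE and KIT were below that in each. MPO, the myeloperoxidase of azurophil granules, was the most abundant, at 4890 and 5060 FPKM in Vector and 3280 and 3320 FPKM in JMJD3 replicates 1 and 2. Of the 6 markers tested, edgeR called 4 lower in JMJD3: MPO (log2 fold change -0.57), PRTN3 (-1.81), AZU1 (-0.56) and CTSG (-3.9). CTSG stood at 231 and 268 FPKM in Vector and 17.3 and 15.3 FPKM in JMJD3. CD33 (log2 fold change 0.29) and CEBPE (0.72) were called higher. In FPKM the groups overlapped for CD33, at 61.7 and 66.4 in Vector and 68.5 and 65.1 in JMJD3. CEBPE, a transcription factor of granulocyte maturation, stood at 54.9 and 69.5 FPKM in Vector and 104 and 97.1 FPKM in JMJD3. The 8 markers summed to 8426 and 9431 FPKM in the Vector libraries and to 4721 and 4673 FPKM in the JMJD3 libraries. Of 10 markers of other cells, 4 (MS4A1, HBB, HBA1 and PF4) were listed at 0 in every library and the sum was between 12.9 and 18.6 FPKM, with CD79A as the most abundant gene. Of the 2 tested, CD79A was called higher in JMJD3, at 8.14 and 10.2 FPKM in Vector and 16.9 and 15.7 FPKM in JMJD3 (log2 fold change 0.83; edgeR adjusted p = 0.00416). EPCAM was called lower, at 4.12 and 4.84 FPKM in Vector and 1.1 and 0.951 FPKM in JMJD3 (log2 fold change -2.05; edgeR adjusted p = 0.00115). Markers of both lists thus moved with the groups, in both directions, while the myeloid sum, to which MPO and PRTN3 gave most, was lower in JMJD3, and the part of these markers in the results below was not tested. In RNA from a whole culture, fewer cells of a kind and less RNA per cell cannot be told apart.

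KDM6B, the gene the vector carries, was the first check of the labels. It was counted at 15.8 and 13.7 CPM in Vector replicates 1 and 2 and at 37.9 and 44.2 CPM in JMJD3 replicates 1 and 2. Both JMJD3 libraries were above both Vector libraries, in the direction the labels give. The log2 fold change was 1.48 ± 0.13 (SE, n = 2 and 2; edgeR adjusted p = 0.00114), a 2.78-fold difference with a 95% interval from 2.25-fold to 3.44-fold. The table has 1 value for the gene as a whole, so that transcripts of the vector and of the cells' own gene cannot be told apart. In FPKM, the means were 2.66 ± 0.311 (SD, n = 2) in Vector and 7.38 ± 0.87 (SD, n = 2) in JMJD3.

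The study measured JMJD3 by RT-qPCR with a primer pair whose place in the gene shows the same limit, and the pair is printed for that reason. The lower-case letters are the primers as the study lists them, 5′ to 3′.
Forward: tggactacttgacgggttcc
Reverse: tggtactgataggcggtgag
Matched to the GENCODE canonical transcript of KDM6B on GRCh37 (gene ENSG00000132510, chr17:7737535-7758114, plus strand), the forward primer lies at chr17:7755475-7755494 in exon 20 and the reverse primer crosses the junction of exons 20 and 21, with ends at chr17:7755648-7755825. All bases of both primers are coding, and the product spans 193 bases of the spliced transcript. A coding sequence carried by a vector and the transcript of the cell's own gene share such a stretch.

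KDM6A, the X-linked demethylase, was counted at 30.9 and 20.6 CPM in Vector and at 31.1 and 33.0 CPM in JMJD3 replicates 1 and 2. Vector replicate 2 was the low library, and Vector replicate 1 was close to the JMJD3 libraries. The log2 fold change of 0.32 ± 0.19 (SE) did not pass the test (edgeR adjusted p = 0.215), with a 95% interval from 0.914-fold to 1.69-fold. Without Vector replicate 1 the log2 fold change was 0.60 and KDM6A was called, while without Vector replicate 2 it was 0.05 and KDM6A was not called. In FPKM the Vector libraries were alike, at 6.95 and 7.16, against 7.36 and 7.99 in JMJD3.

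The balance of the demethylases was taken as the ratio of their FPKM within each library. KDM6B stood at 0.414 and 0.341 of the KDM6A level in Vector replicates 1 and 2, and at 0.919 and 1.00 of it in JMJD3 replicates 1 and 2. KDM6B was thus the lower of the pair in both Vector libraries and close to KDM6A in both JMJD3 libraries. The log2 ratio went from -1.41 ± 0.20 (SD) to -0.06 ± 0.09 (SD), a difference of 1.35 (exact two-sided permutation test over libraries, p = 0.333, which is the smallest p that 2 against 2 can give).

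EZH2, the main catalytic subunit of dividing cells, was counted at 110.3 and 106 CPM in Vector and at 94.8 and 93.9 CPM in JMJD3. The JMJD3 libraries lay below the Vector libraries without overlap, but the log2 fold change of -0.19 ± 0.08 (SE) did not pass (edgeR adjusted p = 0.0928). Its 95% interval ran from 0.765-fold to 0.997-fold. EZH2 was called without Vector replicate 1 (log2 fold change -0.20) and without Vector replicate 2 (-0.22).

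EZH1, the catalytic subunit that also acts in resting cells, was counted at 27.8 and 28.0 CPM in Vector and at 36.9 and 35.5 CPM in JMJD3. It was higher in both JMJD3 libraries, with a log2 fold change of 0.38 ± 0.10 (SE; edgeR adjusted p = 0.022), or 1.30-fold. The call was lost without JMJD3 replicate 1 (log2 fold change 0.35) and without JMJD3 replicate 2 (0.41).

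The ratio of EZH2 to EZH1 in FPKM was 3.52 and 3.70 in Vector replicates 1 and 2, and 2.20 and 2.39 in JMJD3 replicates 1 and 2. EZH2 was the more abundant in each of the 4 libraries, and the ratio was lower in both JMJD3 libraries. On the log2 scale it went from 1.85 ± 0.05 (SD) to 1.20 ± 0.09 (SD), a difference of -0.65 (exact two-sided permutation test, p = 0.333, again the smallest possible).

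**Figure D1:**
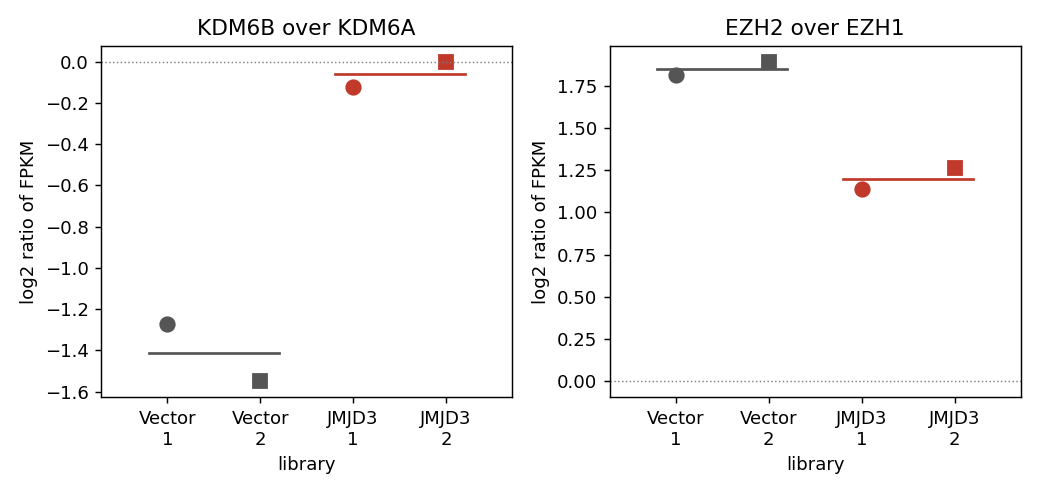
Log2 ratio of FPKM in each library for KDM6B over KDM6A (left) and EZH2 over EZH1 (right); points are libraries (circles replicate 1, squares replicate 2) and lines are group means. KDM6B over KDM6A rose from a mean of -1.41 to -0.06, and EZH2 over EZH1 went from 1.85 to 1.20.

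EED, which binds the methylated lysine and stimulates the enzyme, was counted at 35.9 and 39.0 CPM in Vector and at 32.8 and 32.2 CPM in JMJD3. The JMJD3 libraries were lower without overlap, and the log2 fold change of -0.20 ± 0.10 (SE) did not pass (edgeR adjusted p = 0.146). Without Vector replicate 1 it was -0.30 and EED was called, while without Vector replicate 2 it was -0.14 and EED was not called.

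SUZ12, the scaffold of the complex, was counted at 113 and 81.2 CPM in Vector and at 128 and 132 CPM in JMJD3. Vector replicate 2 was far below the other 3 libraries, and the spread of the Vector libraries (SD 22.5 CPM) was large beside that of the JMJD3 libraries (SD 3.27 CPM). The log2 fold change of 0.42 ± 0.15 (SE) did not pass (edgeR adjusted p = 0.0649). It was 0.64 without Vector replicate 1 and 0.20 without Vector replicate 2, and SUZ12 was called in both of these fits. It was also called with upper quartile scaling (0.46) and with the DESeq2 Wald test (0.39). SUZ12 has a near copy, SUZ12P1, at 20.1 and 17.7 CPM in Vector and 22.5 and 20.7 CPM in JMJD3. Estimated counts can divide reads between such copies, so that both values are uncertain. The sum of SUZ12 and SUZ12P1 had a log2 fold change of 0.38 and did not pass either (edgeR adjusted p = 0.0649). Vector replicate 2 was also the lowest library for KDM6A, KDM6B and JARID2. The same held in the lists below for KMT2C (22.1 CPM, against 37.1 in Vector replicate 1), EP300 (44.6 against 73.1) and ARID2 (44.3 against 69.9). It was the highest library for EED, PHF19 and MBD3. Among the 10 genes, EZH1, EED and PHF19 were higher in Vector replicate 2 than in Vector replicate 1, and the rest lower. What sets this library apart was not tested.

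RBBP7 was counted at 313 and 304 CPM in Vector and at 248 and 245 CPM in JMJD3. It was lower in both JMJD3 libraries, with a log2 fold change of -0.33 ± 0.07 (SE; edgeR adjusted p = 0.0134), or 0.798-fold. Its paralog RBBP4 was counted at 306 and 282 CPM in Vector and at 238 and 239.8 CPM in JMJD3, with a log2 fold change of -0.30 ± 0.08 (SE; edgeR adjusted p = 0.0232). The calls of both were lost without JMJD3 replicate 1 (log2 fold changes -0.33 for RBBP7 and -0.30 for RBBP4) and without JMJD3 replicate 2 (-0.32 and -0.31).

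For RBBP4 the deposited units differed. Its FPKM were 220.4 and 180.5 in Vector and 186 and 191.5 in JMJD3, so that the groups overlapped. The pseudocount of 1 in limma on log2(FPKM + 1) understates the change of low genes, of which RBBP4 is not one. On that scale its log2 fold change was -0.08, as it was with a pseudocount of 0.1, and RBBP4 was not called. With no filter on low counts its edgeR call was lost as well (log2 fold change -0.30). RBBP7 kept its order in FPKM, at 174.5 and 177 in Vector and 133 and 131 in JMJD3. Processed copies of RBBP4 (RBBP4P1 to RBBP4P6) held at most 3 estimated reads in a library.

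JARID2, which recruits PRC2 and contains a jumonji domain without demethylase activity, was counted at 82.7 and 65.2 CPM in Vector and at 119 and 124 CPM in JMJD3. Both JMJD3 libraries were above both Vector libraries. The log2 fold change was 0.72 ± 0.12 (SE; edgeR adjusted p = 0.00611), or 1.65-fold with a 95% interval from 1.34-fold to 2.02-fold. The log2 fold change was 0.86 without Vector replicate 1 and 0.56 without Vector replicate 2. The antisense gene JARID2-AS1 held at most 1 estimated read in a library.

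PHF19, a Polycomb-like protein that reads methylated lysine 36 of histone H3, was counted at 71.0 and 83.9 CPM in Vector and at 49.6 and 51.8 CPM in JMJD3. Both JMJD3 libraries were below both Vector libraries, with a log2 fold change of -0.61 ± 0.11 (SE; edgeR adjusted p = 0.00694), or 0.655-fold with a 95% interval from 0.547-fold to 0.784-fold. In FPKM it was 71.9 and 85.9 in Vector and 41.9 and 41.2 in JMJD3, and the log2 ratio of the group means was -0.93. The accessory subunits thus moved in opposite directions.

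**Figure D2:**
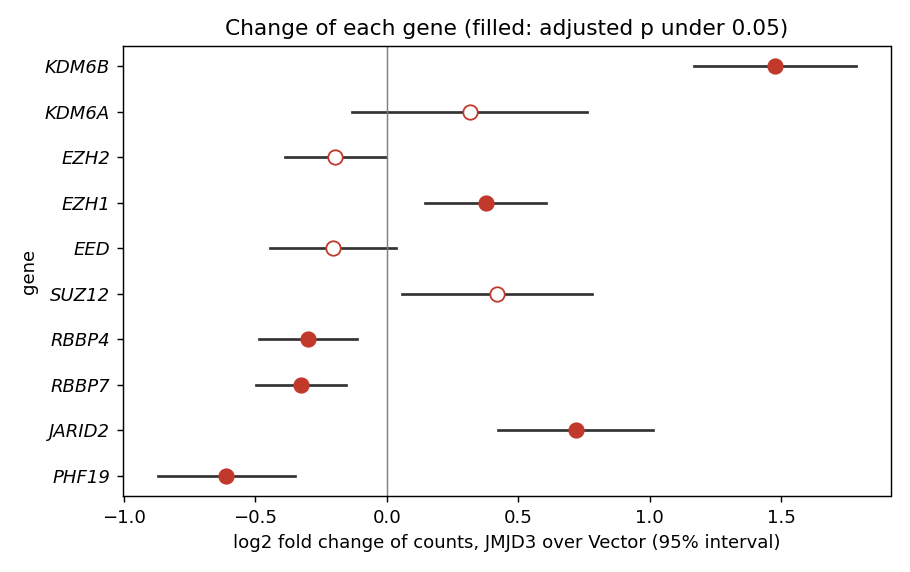
Log2 fold change of counts, JMJD3 over Vector, for each gene (x axis), with its 95% interval as a line; filled points have an edgeR adjusted p under 0.05. KDM6B (1.48) and JARID2 (0.72) lie highest and PHF19 (-0.61) lowest.

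In all, 3 of the 10 genes were called higher (KDM6B, EZH1 and JARID2), where 21.6% of all genes tested were, and 3 were called lower (RBBP4, RBBP7 and PHF19), where 19.1% were. The remaining 4 (KDM6A, EZH2, EED and SUZ12) did not pass. With a change of at least 2-fold also required, edgeR called 1 gene, KDM6B, higher (7.55% of all genes tested) and 0 lower (2.82%). DESeq2 and limma also called KDM6B alone at that limit, and the shares of all genes given here are those of edgeR. At an unadjusted p under 0.05, edgeR gave 4 higher and 4 lower genes, beside 26.9% and 24.2% of all genes tested. The CPM of the groups did not overlap for any of the 10 genes, 5 higher and 5 lower, against 74.3% of all genes tested in either direction. The median log2 fold change was 0.06 over the 10 genes and -0.20 over the 8 PRC2 subunits, beside 0.04 over all genes tested. These counts were not tested against the shares of the table as a whole, and no result about the group is drawn from them. Counts of calls moved with the libraries used, in the whole table as in these genes. Without Vector replicate 1, 5 genes were called higher and 5 lower, beside 28.5% and 27.4% of all genes tested. Without JMJD3 replicate 1, 2 were called higher and 1 lower (13.8% and 9.29% of all genes), and without JMJD3 replicate 2 the counts were again 2 and 1 (12.6% and 7.43%).

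In the order of the levels, RBBP4 and RBBP7 were highest in both groups (mean FPKM 200.5 and 176 in Vector, 189 and 132 in JMJD3) and the demethylases lowest. In Vector they were followed by PHF19 (78.9), EZH2 (48.1), EED (24.7), SUZ12 (23.6), JARID2 (13.6), EZH1 (13.4), KDM6A (7.06) and KDM6B (2.66). EED and SUZ12, JARID2 and EZH1, and RBBP4 and RBBP7 did not differ there beyond their spread. In JMJD3 the order was EZH2 (41.8), PHF19 (41.5), SUZ12 (31.4), JARID2 (22.0), EED (19.3), EZH1 (18.2), KDM6A (7.68) and KDM6B (7.38). There EZH2 and PHF19, EED and EZH1, and the demethylases overlapped between libraries.

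**Figure D3:**
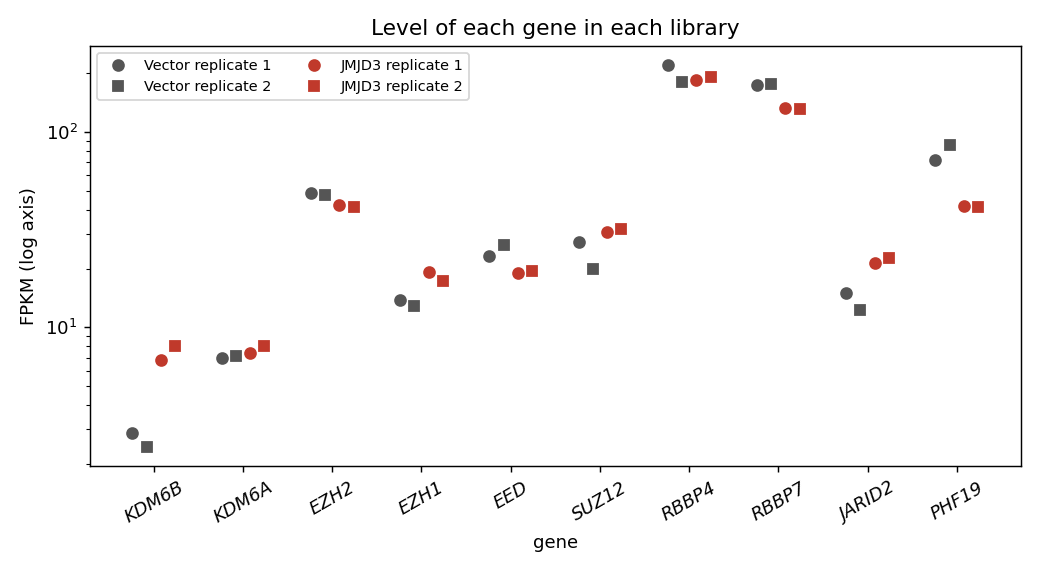
FPKM of each gene in each library on a log axis; grey points are Vector and red points JMJD3 libraries, circles replicate 1 and squares replicate 2. PHF19 (mean 78.9) lay above EZH2 (48.1) in Vector, and at about the same level in JMJD3 (41.5 and 41.8).

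The count divided by the FPKM gives, up to a library constant, the gene length that the deposited values imply, which can move where the mix of transcripts moves. For KDM6B it was 0.972 and 1.03 in Vector and 0.986 and 0.979 in JMJD3, relative to the Vector mean, so that no difference beyond the spread of the Vector libraries appeared. For PHF19 it was 0.992 and 1.01 in Vector and 1.18 and 1.26 in JMJD3. For RBBP4 it was 0.929 and 1.07 in Vector and 0.849 and 0.835 in JMJD3. PHF19 and RBBP4 were thus the 2 genes whose groups did not overlap and whose means differed by at least 1.1-fold, where 20.6% of 15225 genes were past the same limits. KDM6A differed inside a group instead, at 1.20 in Vector replicate 1 and 0.797 in Vector replicate 2, against 1.13 and 1.11 in JMJD3.

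**Figure D4:**
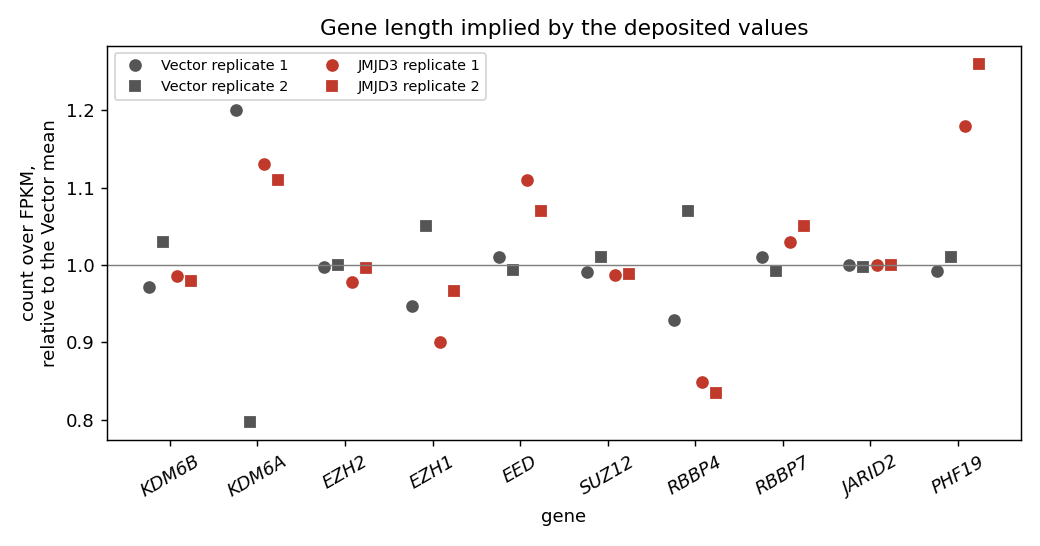
Count over FPKM of each gene in each library, relative to the mean of the Vector libraries (grey Vector, red JMJD3; circles replicate 1, squares replicate 2). PHF19 was longer in JMJD3 (1.18 and 1.26), RBBP4 shorter (0.849 and 0.835), and KDM6A spread most within Vector (1.20 and 0.797).

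Promoters were compared because the genes moved in different directions. RefSeq windows on GRCh38.p14, from 250 bases before to 30 bases after the start, were found for all 10 genes (16 windows, some genes having 2 starts). E2F factors are known to control PRC2 genes in dividing cells, and their words TTTCCCGC, TTTGGCGC, TTTGCCGC and TTTCGCGC were searched on both strands. A word was found in 4 of the 16 windows, those of EZH1, EZH2, SUZ12 and PHF19, and in 3.14% of 35116 windows of all genes. The C/EBP word TTGCNNAA, on both strands, was found in 0 of the 16 and in 9.96% of all windows. These windows are shorter than those in which the paper scored C/EBPβ targets. The paper reports C/EBPβ at the JMJD3 locus in another cell line that overexpressed it. The windows with a match are printed 5′ to 3′ on the strand of the gene, with the match in capitals.
EZH1, chr17:42745011-42745290, minus strand: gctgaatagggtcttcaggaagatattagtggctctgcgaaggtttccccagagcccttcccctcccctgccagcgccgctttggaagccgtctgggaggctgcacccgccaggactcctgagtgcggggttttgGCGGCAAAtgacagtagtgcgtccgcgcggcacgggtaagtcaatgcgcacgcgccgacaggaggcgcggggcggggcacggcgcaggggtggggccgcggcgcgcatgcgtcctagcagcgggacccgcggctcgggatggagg
EZH2, chr7:148884262-148884541, minus strand: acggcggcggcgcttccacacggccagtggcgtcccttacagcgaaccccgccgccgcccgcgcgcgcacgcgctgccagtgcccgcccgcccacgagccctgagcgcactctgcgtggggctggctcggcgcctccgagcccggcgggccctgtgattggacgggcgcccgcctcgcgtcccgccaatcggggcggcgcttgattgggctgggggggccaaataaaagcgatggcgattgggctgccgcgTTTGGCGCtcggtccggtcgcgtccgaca
SUZ12, chr17:31936757-31937036, plus strand: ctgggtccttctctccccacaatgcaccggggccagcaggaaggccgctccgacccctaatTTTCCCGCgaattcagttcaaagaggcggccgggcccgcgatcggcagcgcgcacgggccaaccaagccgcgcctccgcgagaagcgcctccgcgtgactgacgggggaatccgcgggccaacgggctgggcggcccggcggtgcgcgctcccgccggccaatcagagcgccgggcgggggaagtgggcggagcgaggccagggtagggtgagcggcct
PHF19, chr9:120877159-120877438, minus strand: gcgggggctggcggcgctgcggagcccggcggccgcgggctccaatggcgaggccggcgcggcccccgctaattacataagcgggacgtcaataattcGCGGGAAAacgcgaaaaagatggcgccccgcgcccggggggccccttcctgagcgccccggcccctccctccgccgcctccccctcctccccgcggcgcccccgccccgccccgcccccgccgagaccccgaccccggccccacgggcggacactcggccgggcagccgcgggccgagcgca
These 4 genes include 1 called higher (EZH1), 1 called lower (PHF19) and 2 that did not pass (EZH2 and SUZ12). A match describes the letters of a window and not the binding of a factor.

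Other genes of the complexes were taken from lists. Of 7 other PRC2 accessory subunits tested, 1 was called lower, PHF1, a Polycomb-like paralog of PHF19, at 32.9 and 39.1 CPM in Vector and 27.3 and 24.9 CPM in JMJD3 (log2 fold change -0.46 ± 0.12 SE; edgeR adjusted p = 0.0254), where 19.1% of all genes tested were called lower. DESeq2 and limma also called 1 lower each, beside 18.6% and 14.8% of all genes. None was called higher by edgeR, DESeq2 or limma, where 21.6%, 16.6% and 13.4% of all genes tested were. At an unadjusted p under 0.05, 0 were higher by edgeR, beside 26.9% of all genes. EZHIP, an inhibitor of PRC2, was listed at 0 in every library and not tested. Of 9 genes of the KDM6A complex, WDR5, a subunit that KMT2 complexes share, was called lower, at 164 and 171 CPM in Vector and 123 and 119 CPM in JMJD3 (-0.47 ± 0.08 SE; edgeR adjusted p = 0.00539), beside the same 19.1% of all genes. DESeq2 called 1 of the 9 lower and limma 2, again beside 18.6% and 14.8% of all genes. None of the 9 was called higher by edgeR, DESeq2 or limma, beside the same 21.6%, 16.6% and 13.4% of all genes. At an unadjusted p under 0.05 edgeR gave 1 higher (RBBP5) and 1 lower (WDR5), where 26.9% and 24.2% of all genes were. The list medians were 0.05 and -0.07.

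Among 16 H3K27 acetyltransferases and SWI/SNF subunits, whose activity opposes Polycomb silencing, 1 was called higher and 3 lower, where 21.6% and 19.1% of all genes tested were. DESeq2 called 3 higher and 3 lower, beside 16.6% and 18.6% of all genes. With limma the counts were 1 and 3, beside 13.4% and 14.8%. SMARCD3 was the higher gene, at 13.3 and 17 CPM in Vector and 25.5 and 22.2 CPM in JMJD3 (log2 fold change 0.66 ± 0.15 SE; edgeR adjusted p = 0.0146). The lower genes were SMARCB1 (-0.42), SMARCD1 (-0.39) and ACTL6A (-0.30). The acetyltransferases CREBBP (0.06) and EP300 (-0.06) did not pass, and the median of the list was 0.01.

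RBBP4 and RBBP7 also serve the NuRD, SIN3 and CAF-1 complexes. Of 15 genes of these complexes, 8 were called lower and 0 higher by edgeR, beside 19.1% and 21.6% of all genes tested. The median log2 fold change was -0.27, beside 0.04 over all genes. DESeq2 called 9 lower and limma 5, beside 18.6% and 14.8% of all genes tested. Neither called any higher, where 16.6% and 13.4% of all genes were. No gene of the list was higher at an unadjusted p under 0.05, beside 26.9% of all genes. The lower genes were MBD3 (-0.77), MTA2 (-0.62), GATAD2A (-0.54), MTA3 (-0.45), MBD2 (-0.35), CHD4 (-0.31) and HDAC1 (-0.25), which are NuRD subunits, and CHAF1A (-0.39) of CAF-1. MBD3, the NuRD subunit with the largest change, was counted at 247 and 306 CPM in Vector and 164 and 161 CPM in JMJD3. HDAC2 (0.01) did not pass.

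**Figure D5:**
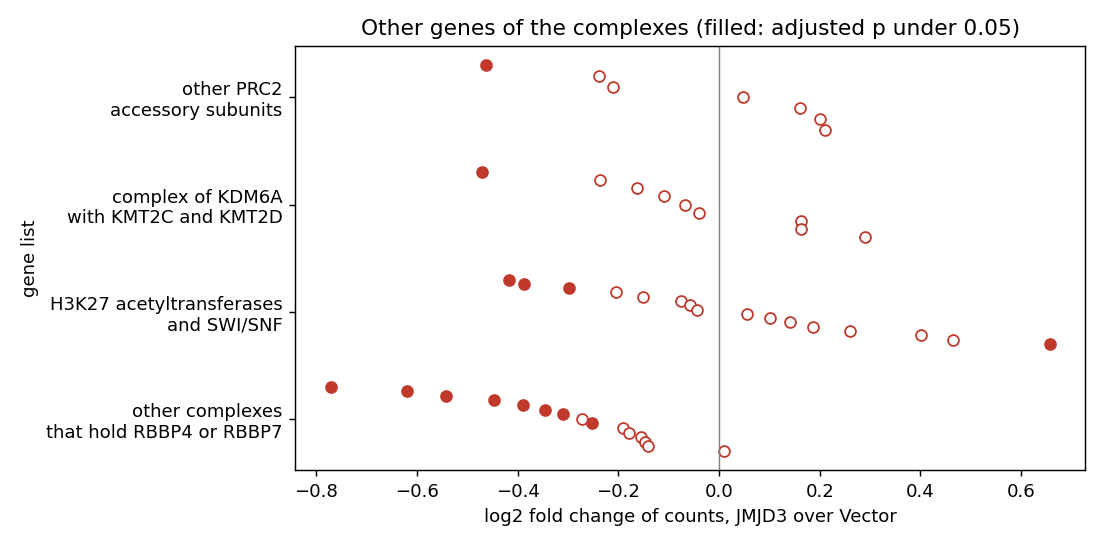
Log2 fold change of counts, JMJD3 over Vector (x axis), of the tested genes of 4 lists; each point is a gene and filled points have an edgeR adjusted p under 0.05. In the list of other complexes that hold RBBP4 or RBBP7, 8 of 15 genes were called lower, from MBD3 (-0.77) to HDAC1 (-0.25). Of all genes tested, 19.1% were called lower.

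The genes with a pattern most like that of KDM6B over the 4 libraries were MICAL2, ZEB1-AS1 and XYLT1, with root mean square differences of 0.0469, 0.0584 and 0.0615 between centred log2 CPM profiles. For EZH2 they were PSMD10, SNX12 and PITRM1, at 0.00551, 0.00556 and 0.00566. Within a distance of 0.05, which is not scaled to the size of the change, lay 436 of 12386 genes for EZH2 and 1 for KDM6B.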

How the data were processed

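The authors deposited, per gene and library, an estimated count and an FPKM value, beside their own means, fold change, p-value and FDR, which were not used. The submitters' processing notes name CASAVA 1.8, TopHat2 2.0.4, RSEM, edgeR and GRCh38, the paper STAR, hg19, HTSeq-count and DESeq2, and the series design BWA and Cufflinks; these differ, and the file holds no coordinates. Medium and RNA extraction are also named differently in the labels and the paper. Between 90.8% and 91.5% of a library's nonzero counts were within 0.02 of a whole multiple of its step.

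Counts were rounded, kept with filterByExpr (15246 of 60662 genes), TMM-scaled and fitted in edgeR 4.0.16 under R 4.3.3 (glmQLFit, glmQLFTest), all 4 libraries in 1 fit without covariate. The SE is the log2 fold change divided by the square root of F. Alternatives used DESeq2 1.42.0, limma 3.58.1, other scalings and filters, a replicate block and each library left out. The fits were tested on simulated counts. Gene positions and primer matches are on GRCh37 (GENCODE), promoters on GRCh38.p14 (RefSeq).

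All 10 genes were named, and from each list of other complex genes every gene with an adjusted p under 0.05. RBBP5, HDAC2, CREBBP, EP300 and EZHIP, and the distance of 0.05, were chosen after their values were seen. The results for 2 marker genes are not reported here. Members and lists were chosen with earlier results of these data known. A count of 0 allows up to 3 reads (0.0671 to 0.0925 CPM), and limits cover counting error only.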

Additional observations from a re-analysis of the deposited data

How the results depend on the processing

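Direction was kept by each of the 10 genes in every alternative run. KDM6B, JARID2 and PHF19 were called in all of them, with log2 fold changes of 1.19 to 1.58, 0.56 to 0.86 and -0.92 to -0.48. The number of genes called higher was 3 and ranged from 2 to 5 with each library left out, and the number called lower was 3 and ranged from 1 to 5. Over all genes tested, the share called higher was 21.6% and ranged from 12.6% to 28.5% in those fits, and the share called lower was 19.1% and ranged from 7.43% to 27.4%. In those fits the lone library of a group is assumed to vary like the other group. With at least 2-fold also required, 1 gene was called higher and 0 lower. The KDM6B to KDM6A difference was 1.13, and that of EZH2 to EZH1 -0.57, from CPM over the median implied length, in place of 1.35 and -0.65; without each library they ranged from 1.21 to 1.49 and from -0.71 to -0.59.

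With the replicate number as a replicate block, 3 genes were called higher (KDM6B, JARID2 and SUZ12, with EZH1 lost) and 1 lower (PHF19, with RBBP4 and RBBP7 lost), beside 21.4% and 15.8% of all genes. The log2 fold changes of the lost genes were 0.38, -0.30 and -0.33, as without the block. Deviations of same-numbered libraries from their group means correlated at -0.162 across genes. That value cannot show whether same-numbered libraries were handled together, which was not tested. With the numbers crossed, an alternative chosen after seeing the data, 5 were called higher and 3 lower (28.4% and 24.7% of all genes). Counts divided by the library step, and SUZ12 summed with SUZ12P1, also chosen after seeing the data, gave 3 higher and 3 lower. Over all genes, limma on log2(FPKM + 1) called 2046 higher and 2260 lower, the DESeq2 Wald test 2534 and 2834, and the fit with no filter 1893 and 1776, in place of 3292 and 2906. Causes of these differences were not tested. Each of the 10 genes had at least 13.7 CPM in every library, and every test rests on 2 libraries a group. Which of depth and the number of libraries limits the tests more was not tested.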
